A study of Mus musculus with 5 samples.

Results

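The members described here are 22997 of the 124158 H3K27ac peaks counted by CUT&Tag in Treg cells of the mouse large intestine. They are narrower than 3 kb, their midpoint lies in the 3′ part of a protein-coding gene of at least 20 kb, from 66.7% of its length to its end, and they are more than 3 kb from the transcription start site (TSS) of every protein-coding gene. The rule used positions in the genome and no counts. In CUT&Tag, an antibody against a histone mark brings a Tn5 transposase to the chromatin, where it inserts sequencing adapters. Treg cells were sorted as CD3+CD4+Foxp3-YFP+ cells from C57BL/6 mice of 2 weeks of age, with 60000 cells for each library and cells of females and males pooled. Ctrl mice carried Foxp3-Cre with 1 floxed and 1 normal allele of Setd2 (Setd2 f/+), and KO mice carried the same Cre with both alleles floxed (Setd2 f/f), so the Ctrl cells may also lack 1 copy. Cre was driven by Foxp3, so that deletion is directed to Foxp3-expressing cells and the rest of the mouse keeps Setd2. Each group held 2 libraries, and the cells of each biological replicate were pooled from 3 to 5 mice.

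H3K27ac, histone H3 acetylated at lysine 27, marks active promoters and enhancers, and many enhancers lie inside introns. Setd2 is the methyltransferase that places H3K36me3 on the bodies of transcribed genes as it travels with elongating RNA polymerase II, and the mark is usually densest toward the 3′ end. H3K36me3 in turn recruits proteins that keep the gene body free of stray initiation and of acetylation. The peaks of the 3′ part were therefore examined for what happens to H3K27ac where Setd2 normally works most. H3K36me3 itself was not measured in these libraries.

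The members lay in 6107 of the 10159 genes of at least 20 kb (60.1%), with a median of 3 per gene. 1857 genes held 1 member and 436 held 10 or more. Their median width was 457 bp, and together they covered 14.6 Mb of the 102.1 Mb in peaks. The midpoint lay in an intron at 87.1% of them, in coding sequence at 6.24% and in an untranslated region at 6.63%. In the 5′ part of such genes, which ends at 33.3% of the length, 98.1% of the peaks were intronic, so exons were more frequent near the 3′ end. The median member lay 12.5 kb before the end of its gene, and 771 members (3.35%) lay within 1 kb of that end. 381 members lay in the 3′ part of several overlapping genes, and 828 also lay in the 5′ or middle part of another gene. Only 2.74% were within 1 kb of a TSS of a non-coding gene.

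Some sequences below come from members picked for small p, with lower counts in KO (Rif1, Pbrm1, Nuf2) or higher counts in KO (Tbc1d16, Agpat4). The edgeR adjusted p of these picked members lay between 0.661 and 0.998, so their direction describes and does not test. The other members were among the highest in H3K27ac (Pigk) or in genes that the study followed (Gata3, Il1rl1). Each sequence is the central stretch of 300 bases of the peak on the plus strand of RefSeq GRCm38.p6, the assembly behind mm10. None overlaps an annotated exon. Capitals mark the motifs searched on both strands, which were TGANTCA for AP-1, TGTGGTT for RUNX, CAGGAAG for ETS factors, AGATAAG for the GATA family, TGTTTAC for forkhead factors, GGGANTTCC for NF-kB, CTTTGAT for TCF, TGGAAAA for NFAT, GAAANTGAA for IRF and GGGCGGG for KLF. A match describes letters and is no evidence of binding, and matches of different motifs may overlap.
Rif1, chr2:52115062-52115361: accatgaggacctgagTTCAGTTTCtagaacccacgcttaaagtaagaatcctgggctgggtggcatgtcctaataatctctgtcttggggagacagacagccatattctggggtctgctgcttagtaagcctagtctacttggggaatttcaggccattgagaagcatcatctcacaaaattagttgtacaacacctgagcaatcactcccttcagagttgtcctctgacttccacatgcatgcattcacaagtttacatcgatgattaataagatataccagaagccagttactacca
Pbrm1, chr14:31104802-31105101: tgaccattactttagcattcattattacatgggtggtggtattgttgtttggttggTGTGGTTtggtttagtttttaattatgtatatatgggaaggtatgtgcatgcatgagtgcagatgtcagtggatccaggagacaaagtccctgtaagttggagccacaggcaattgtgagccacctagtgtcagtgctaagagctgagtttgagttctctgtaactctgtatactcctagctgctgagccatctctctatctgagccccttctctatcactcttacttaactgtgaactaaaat
Nuf2, chr1:169508422-169508721: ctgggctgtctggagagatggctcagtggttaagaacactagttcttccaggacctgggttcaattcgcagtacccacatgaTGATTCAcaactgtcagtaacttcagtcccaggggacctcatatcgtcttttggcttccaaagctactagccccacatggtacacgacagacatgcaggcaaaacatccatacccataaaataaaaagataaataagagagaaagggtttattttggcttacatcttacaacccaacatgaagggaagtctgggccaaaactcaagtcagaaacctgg
Tbc1d16, chr11:119160057-119160356: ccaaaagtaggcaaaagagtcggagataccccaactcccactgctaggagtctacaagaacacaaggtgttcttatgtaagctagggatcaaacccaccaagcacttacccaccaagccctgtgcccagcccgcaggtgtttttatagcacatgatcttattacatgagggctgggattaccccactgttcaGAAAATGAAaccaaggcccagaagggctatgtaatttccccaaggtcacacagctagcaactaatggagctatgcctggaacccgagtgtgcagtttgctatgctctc
Agpat4, chr17:12200985-12201284: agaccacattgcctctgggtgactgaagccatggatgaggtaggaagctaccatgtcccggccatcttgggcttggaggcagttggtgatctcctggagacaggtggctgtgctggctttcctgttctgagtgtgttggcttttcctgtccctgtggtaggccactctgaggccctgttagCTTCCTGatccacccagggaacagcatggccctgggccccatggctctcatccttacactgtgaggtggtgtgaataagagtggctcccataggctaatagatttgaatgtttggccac
Pigk, chr3:152912302-152912601: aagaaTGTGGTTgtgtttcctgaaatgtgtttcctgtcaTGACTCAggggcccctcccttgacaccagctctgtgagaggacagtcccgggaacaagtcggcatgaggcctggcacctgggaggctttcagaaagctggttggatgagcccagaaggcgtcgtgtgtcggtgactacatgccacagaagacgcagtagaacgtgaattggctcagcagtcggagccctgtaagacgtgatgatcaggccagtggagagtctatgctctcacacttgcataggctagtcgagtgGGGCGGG
Gata3, chr2:9860159-9860458: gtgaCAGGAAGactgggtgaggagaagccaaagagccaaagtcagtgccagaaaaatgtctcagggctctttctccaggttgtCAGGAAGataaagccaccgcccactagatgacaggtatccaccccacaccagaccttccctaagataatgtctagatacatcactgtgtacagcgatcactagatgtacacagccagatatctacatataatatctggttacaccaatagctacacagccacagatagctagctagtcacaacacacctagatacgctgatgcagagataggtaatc
Il1rl1, chr1:40461197-40461496: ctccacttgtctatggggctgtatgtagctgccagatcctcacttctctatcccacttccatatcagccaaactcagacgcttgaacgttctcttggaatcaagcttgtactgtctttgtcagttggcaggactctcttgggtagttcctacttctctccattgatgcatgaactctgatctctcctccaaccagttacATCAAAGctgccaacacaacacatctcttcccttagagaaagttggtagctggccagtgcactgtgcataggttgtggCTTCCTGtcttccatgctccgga
The Rif1 and Tbc1d16 members each held the IRF motif, the Pbrm1 member the RUNX motif, the Nuf2 member the AP-1 motif and the Agpat4 member the ETS motif. The Pigk member held RUNX, AP-1 and KLF motifs, the Gata3 member 2 ETS motifs, and the Il1rl1 member a TCF and an ETS motif.

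Over all 22997 members, the ETS motif was the most frequent of the 10, in 15.05% of the central windows, against 14.1% of all 124158 peaks and 13.6% of peaks of the 5′ part. The AP-1 motif was present in 9.48% of members and 9.39% of all peaks, the GATA motif in 3.796% and 3.775%, and the forkhead motif in 4.10% and 3.998%. The RUNX motif was in 7.24% of members against 8.29% of peaks of the 5′ part, and the NFAT motif in 6.10% against 6.99%. The KLF motif, a GC-rich element of many promoters, was in 2.31% of members and 4.35% of all peaks. Median GC content was 47.8% in members, 46.8% in peaks of the middle part and 46.2% in those of the 5′ part. Repeats, as soft-masked in the assembly, took a median of 12.3%, 15.6% and 18.2% of the peak.

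Library totals lay between 2395002 and 4712473 counts in peaks, and the median member held 7 and 14 counts in the Ctrl libraries against 8 and 11 in the KO libraries. Counts may include both mates of a read pair and their error covers counting only. Promoter H3K27ac was at 1434 to 2311 CPM summed over 8 Treg and CD4 T cell markers in the 4 libraries, where CPM is counts scaled to library size after TMM. It was at 6.25 to 11.3 CPM over 2 CD8 T cell genes, 13.1 to 24.4 CPM over 4 B cell genes, 12.5 to 33.9 CPM over 5 myeloid genes, 14.02 to 21.1 CPM over 6 epithelial genes and 80.5 to 108.5 CPM over 4 stromal and endothelial genes, nearly all of it from Pecam1 (74.6 to 107.3 CPM), which leukocytes also express. Some promoters of these last 5 lists had no counts in peaks in any library. They were 2 B cell, 3 myeloid, 2 epithelial, 1 CD8 and 1 stromal or endothelial promoter. Promoter values sum the peaks within 3 kb of a TSS, and reads outside peaks were not counted. Such promoters may therefore lack a called peak, and whether they held reads was not tested. The Setd2 genotype cannot be checked from H3K27ac counts.

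H3K27ac peaks kept by the same limits on width and distance to a TSS became denser toward the 3′ end. Peaks of 3 kb or wider were not counted along the gene, and the gene length was not reduced for them. Per Mb of gene length more than 3 kb from a TSS, there were 73.9 peaks in the 3′ part, 66.1 in the middle part and 61.8 in the 5′ part. In the 3′ part, the peaks held 365 and 424 CPM per Mb in the Ctrl libraries against 346 and 342 CPM per Mb in the KO libraries. In the 5′ part, they held 349.1 and 350.2 CPM per Mb in Ctrl and 350.1 and 330.4 CPM per Mb in KO. In the middle part, they held 343.2 and 374.4 CPM per Mb in Ctrl and 334.4 and 327.9 CPM per Mb in KO. The groups therefore overlapped in density over the 5′ part and did not over the middle and 3′ parts. Ctrl replicate 2 stood apart, with a density that climbed from 362 CPM per Mb in the middle of the gene to 452 CPM per Mb close to the end.

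**Figure D1:**
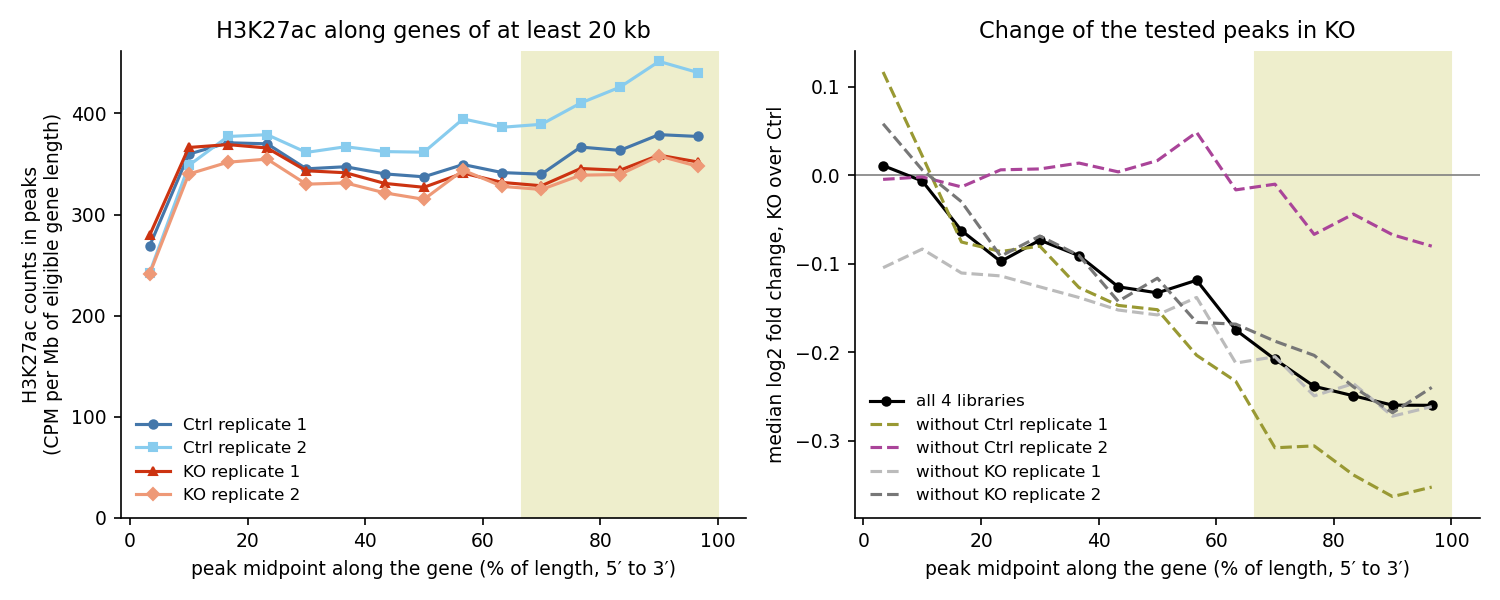
Left, H3K27ac counts in peaks narrower than 3 kb (CPM per Mb of gene length more than 3 kb from a TSS) in 15 bins along genes of at least 20 kb. There is 1 line per library, and the 3′ part is shaded. Right, the median log2 fold change (KO over Ctrl) of the tested peaks in each bin with all 4 libraries (black) and without each library in turn (dashed). The median went from 0.011 in the first bin to −0.26 in the last, and the line without Ctrl replicate 2 went from −0.0046 to −0.080.

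The change in KO followed the same axis. The median log2 fold change of the tested peaks was −0.0065 in the second of 15 equal bins along the gene, −0.13 in the eighth, and −0.21, −0.24, −0.25, −0.26 and −0.26 in the last 5. Peaks within 1% of gene length inside the line that starts the 3′ part had a median of −0.22 (407 tested), and those within 1% outside it −0.15 (377 tested). Without Ctrl replicate 2, the medians of the last 5 bins were −0.010, −0.067, −0.044, −0.067 and −0.080, so most of the slope rested on that library. Without any other single library they lay between −0.19 and −0.36.

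The share of all counts in peaks that fell in members gives the change without any filter. It was 10.5% and 12.2% in Ctrl against 9.61% and 9.41% in KO, or 11.3% ± 1.19 and 9.51% ± 0.142 (SD, n = 2 each). Both KO libraries were below both Ctrl libraries. The difference of −1.82 percentage points had a two-sided exact permutation p of 0.333, the smallest that 2 against 2 libraries allow, and was −0.978 without Ctrl replicate 2. For the middle part the shares were 10.005% ± 0.613 and 8.88% ± 0.190, and for the 5′ part 8.93% ± 0.0108 and 8.36% ± 0.397. The groups did not overlap in either, and their differences were −1.12 and −0.568 percentage points. The log2 ratio of counts in peaks of the 3′ part to those of the 5′ part was 0.23 and 0.45 in Ctrl against 0.15 and 0.22 in KO. Here too both KO libraries were below both Ctrl libraries, with a difference of −0.15 (exact permutation p = 0.333) that shrank to −0.047 without Ctrl replicate 2.

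**Figure D2:**
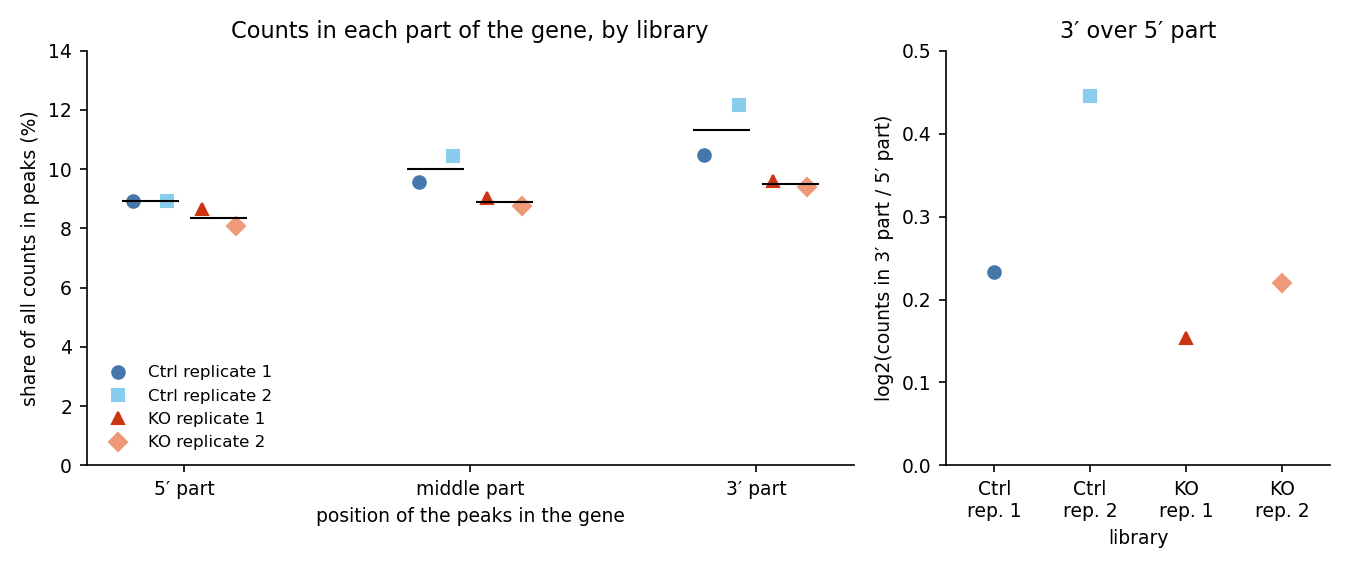
Left, percentage of all counts in peaks that fell in peaks of the 5′, middle and 3′ part, 1 point per library, with a line at each group's mean (n = 2). Right, log2 of counts in the 3′ over the 5′ part per library. Ctrl replicate 2 is the highest in both panels for the 3′ part (12.2% and 0.45), and both KO libraries lie below both Ctrl libraries.

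Of the 22997 members, 13304 (57.9%) had at least 10 counts in at least 2 libraries and were tested. Of all members, 631 passed only through the Ctrl libraries and 666 only through the KO libraries. These counts were 2186 and 4458 over all peaks, 503 and 687 in the middle part, and 329 and 678 in the 5′ part. Among the tested members 8381 (63.0%) had a log2 fold change below 0, with a median of −0.24 against −0.012 over all 74550 tested peaks. Peaks of the middle part had −0.13 and those of the 5′ part −0.053. The median of log2 CPM deviations over members was −0.023 and 0.26 in the Ctrl libraries against −0.14 and −0.012 in the KO libraries. These overlapped, since KO replicate 2 was above Ctrl replicate 1 (two-sided exact permutation p = 0.667). The median log2 fold change was −0.046 without Ctrl replicate 2, and −0.038 over the 1257 members with at least 50 counts in 2 libraries.

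No member passed an adjusted p of 0.05 in edgeR (smallest adjusted p 0.661), where 0.00134% of all tested peaks did, and DESeq2 also called 0. At an unadjusted p under 0.05, edgeR gave 662 members lower (4.98%) and 145 higher (1.09%) in KO, beside 2.79% and 1.45% of all tested peaks. DESeq2 gave 338 lower and 54 higher. Without Ctrl replicate 2 edgeR gave 220 lower and 236 higher. Both KO libraries were below both Ctrl libraries at 3165 members (23.8%, background 16.4%) and above both at 1649 (12.4%, background 16.9%).

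The 5 lower members with the smallest p, among those whose libraries did not overlap, lay in Rif1, Pbrm1, Galnt12, Mki67 and Nuf2. They were picked for small p, so their values describe and do not test, and all but the Mki67 member passed the filter on counts only through the Ctrl libraries, where they were high. A member in an intron of Rif1, which sets replication timing and protects broken DNA ends, lay on chromosome 2 from 52114609 to 52115814, 85.5% along the gene. It held 17 and 37 counts in Ctrl against 2 and 4 in KO, which is 7.69 and 11.0 CPM against 0.745 and 0.958 CPM (log2 fold change −3.38 with an SE of 0.84, adjusted p 0.661 in edgeR). Both KO libraries kept almost none of the signal that both Ctrl libraries had.

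A member in an intron of Pbrm1, a subunit of the PBAF chromatin remodeller, lay on chromosome 14 from 31104624 to 31105278. Its counts were 13 and 25 in Ctrl against 0 and 1 in KO (log2 fold change −5.20 with an SE of 1.33, adjusted p 0.661 in edgeR). With 1 count left in KO, the size of this value depends on the fit. In Galnt12, an enzyme that starts mucin-type O-glycosylation, an intronic member on chromosome 4 from 47112164 to 47113537 held 16 and 45 counts in Ctrl against 2 and 8 in KO (−2.86, SE 0.74, edgeR adjusted p 0.709).

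A member over coding sequence of Mki67, the gene of the proliferation marker Ki-67, lay on chromosome 7 from 135695723 to 135697437. It held 38 and 45 counts in Ctrl against 6 and 17 in KO, or 15.3 ± 2.69 against 3.15 ± 1.30 CPM (SD, n = 2 each; log2 fold change −2.21 with an SE of 0.57, adjusted p 0.709 in edgeR). A member in an intron of Nuf2, a kinetochore protein, on chromosome 1 from 169508191 to 169508951, held 30 and 22 counts in Ctrl against 2 and 7 in KO (−2.93, SE 0.77, edgeR adjusted p 0.785).

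The 5 higher members, picked in the same way, lay in Slc43a2, Igsf8, Tbc1d16, Rnf125 and Agpat4, and the Igsf8 member passed the filter only through the KO libraries. In an intron of Slc43a2, a transporter of large neutral amino acids, a member on chromosome 11 from 75562884 to 75565334 held 19 and 49 counts in Ctrl against 74 and 129 in KO, or 11.6 ± 4.23 against 29.2 ± 2.36 CPM (SD, n = 2 each; log2 fold change 1.31 with an SE of 0.40, adjusted p 0.998 in edgeR). In an intron of Igsf8, a partner of tetraspanins at the cell surface, a member on chromosome 1 from 172305730 to 172306335 held 6 and 4 counts in Ctrl against 30 and 31 in KO (2.28, SE 0.75). In an intron of Tbc1d16, a regulator of Rab GTPases, a member on chromosome 11 from 119159429 to 119160984 held 13 and 33 counts in Ctrl against 52 and 95 in KO (1.40, SE 0.46). The KO libraries were at least as close to each other as the Ctrl libraries in CPM for Slc43a2 and Tbc1d16, as the plot of the 10 named members shows.

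Members in introns of Rnf125, an E3 ubiquitin ligase, and Agpat4, an acyltransferase of phospholipid synthesis, followed. The Rnf125 member held 18 and 23 counts in Ctrl against 48 and 92 in KO (log2 fold change 1.42 with an SE of 0.47), and the Agpat4 member 11 and 10 in Ctrl against 21 and 74 in KO (1.73, SE 0.58). The edgeR adjusted p of these last 4 members was 0.998. Without KO replicate 2 the Agpat4 value was 0.97.

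**Figure D3:**
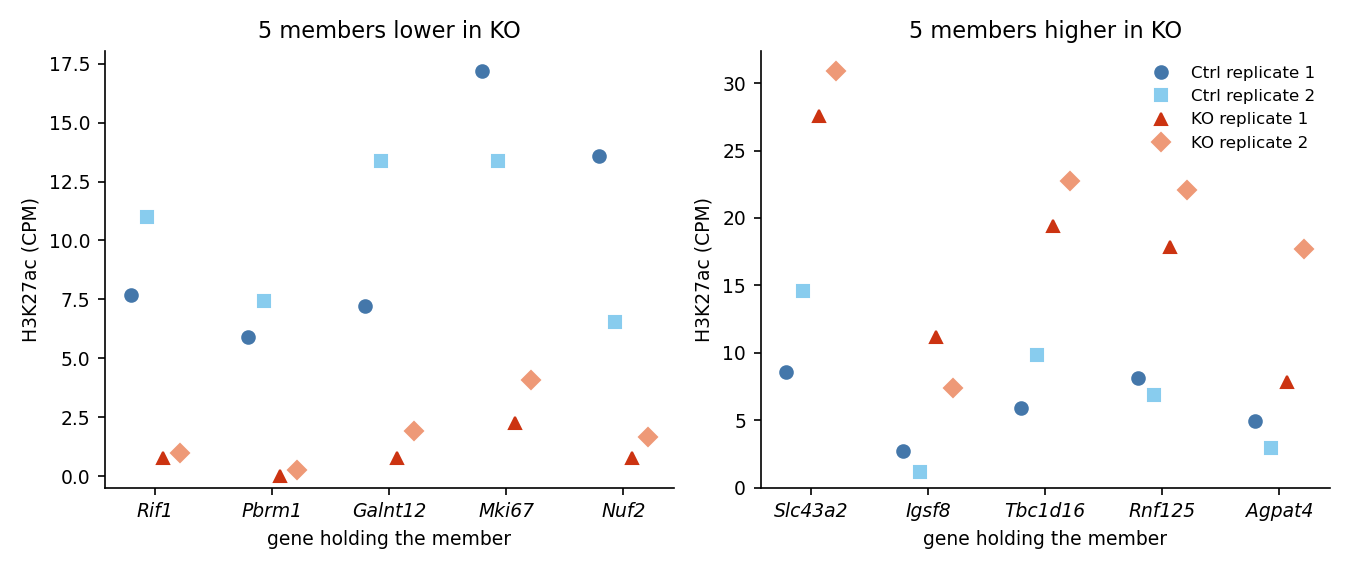
H3K27ac (CPM) in each library at the 5 lower and the 5 higher members with the smallest p among those whose groups did not overlap, named by gene. The KO points of the Rif1, Pbrm1, Galnt12, Mki67 and Nuf2 members lie between 0 and 4.07 CPM and their Ctrl points between 5.88 and 17.2 CPM.

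The members with most H3K27ac did not share a direction. Among the 10 with the highest mean CPM, a member over untranslated sequence near the 3′ end of Mroh2a was first, with 130.3 and 103.9 CPM in Ctrl against 72.7 and 55.3 CPM in KO (log2 fold change −0.87 with an SE of 0.28, adjusted p 0.998 in edgeR). Both KO libraries were below both Ctrl libraries there. The next were in introns of Pigk, a subunit of the GPI transamidase (84.8 CPM, log2 fold change 0.082), Dlgap4 (70.2 CPM, 0.42) and Itpr2, an IP3 receptor calcium channel (66.6 CPM, 0.32). Per kb of peak, the highest of these 10 was the Mid1 member, with 49.5 CPM per kb, against a median of 6.87 CPM per kb over all members. Soft-masked repeats took 64.2% of the Mid1 peak, against a median of 12.3% over all members. The others, in Mid1, Rnf41, Sec22c, Ldlrad4, C87436 and Abr, had log2 fold changes from −0.35 to 0.62. Of these 6 members the Abr member alone passed an unadjusted p of 0.05 (log2 fold change 0.62, adjusted p 0.998 in edgeR), and its groups overlapped.

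Summing the members of each gene gave 4782 testable genes. Of these 3330 (69.6%) had a log2 fold change below 0, with a median of −0.33. Neither edgeR (smallest adjusted p 0.154) nor DESeq2 called any at an adjusted p under 0.05. At an unadjusted p under 0.05, edgeR gave 508 genes lower (10.6% of those tested) and 24 higher (0.502%). Sums over the other parts of the gene were not fitted, so these shares have no background beside them. With a loess offset that removes the trend of fold change on abundance, the counts were 169 lower and 167 higher and the median was −0.0011, since this offset centres the genes. Without Ctrl replicate 2 the median was −0.15, with 159 lower and 49 higher.

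The 5 lower genes with the smallest p, among those whose libraries did not overlap, were Ubr4, Galnt12, Mki67, Ckap5 and Melk. Ubr4, an E3 ubiquitin ligase of the N-degron pathway, had 55.2 and 94.6 CPM over 16 members in Ctrl against 24.6 and 27.8 CPM in KO (log2 fold change −1.52 with an SE of 0.36, adjusted p 0.154 in edgeR). Mki67 had 57.5 and 59.8 CPM over 4 members in Ctrl against 17.9 and 22.5 CPM in KO (−1.53, SE 0.39, adjusted p 0.158). Its Ctrl libraries were within 3 CPM of each other, and the log2 fold change lay between −1.71 and −1.38 when 1 library was left out.

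The other lower genes were Galnt12 (4 members, log2 fold change −2.28 with an SE of 0.58), Ckap5, a microtubule polymerase of the spindle (6 members, −1.92, SE 0.52), and Melk, a kinase of dividing cells (7 members, −1.70, SE 0.47). Ckap5 held 44 and 117 counts in Ctrl against 10 and 43 in KO, and Melk 74 and 117 in Ctrl against 23 and 51 in KO. At the promoter of Mki67 the same libraries held 76.5 and 63.4 CPM in Ctrl against 76.4 and 77.9 CPM in KO, so the groups overlapped there. The promoter of Galnt12 had 18.5 and 14.9 CPM in Ctrl against 12.3 and 16.3 CPM in KO, and that of Ubr4 21.3 and 22.6 CPM against 13.4 and 16.1 CPM. For Ubr4 both KO libraries were thus lower at the promoter as well.

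**Figure D4:**
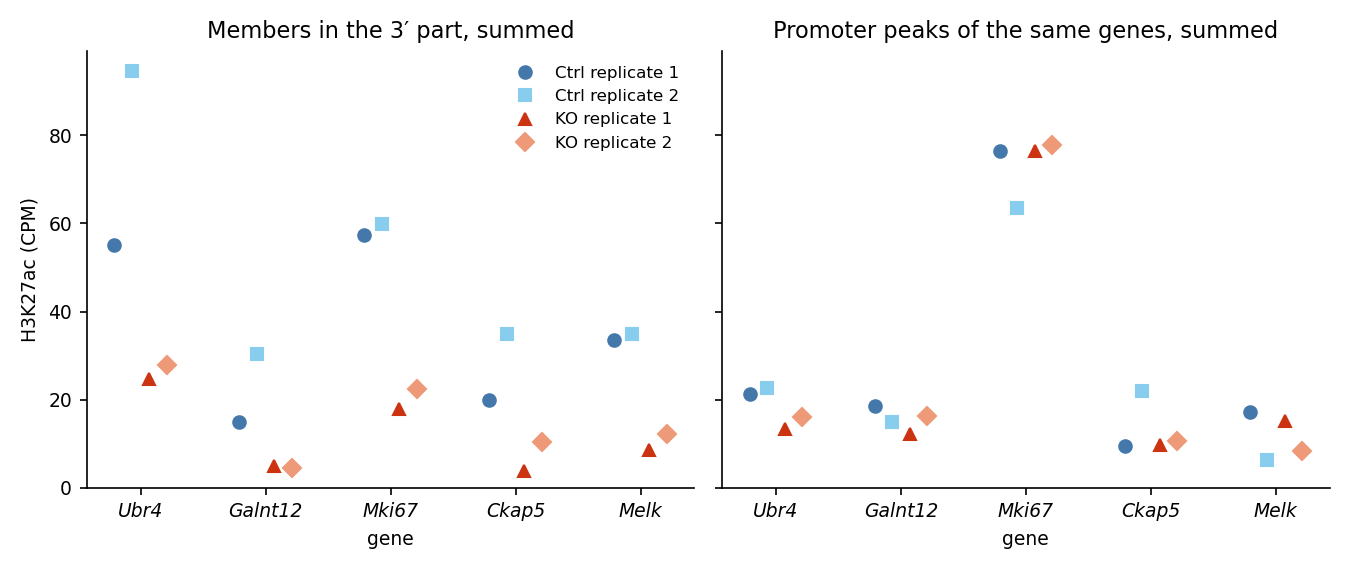
H3K27ac (CPM) per library, summed over the members (left) and over peaks within 3 kb of a TSS (right) of the 5 lower genes. For Mki67, the members hold 57.5 and 59.8 CPM in Ctrl against 17.9 and 22.5 CPM in KO, while the promoter libraries of the groups overlap.

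The 5 higher genes were Lcp2, which encodes the T cell receptor adaptor SLP-76, Tbc1d16, Dglucy, Scmh1, a Polycomb protein, and Fnbp1, an F-BAR membrane-bending protein. Lcp2 had 24.9 and 23.5 CPM over 6 members in Ctrl against 39.5 and 53.4 CPM in KO (log2 fold change 0.95 with an SE of 0.40, adjusted p 0.352 in edgeR). Fnbp1 had 111.7 and 164.6 CPM over 15 members in Ctrl against 187.4 and 222.6 CPM in KO (0.57, SE 0.26, adjusted p 0.388). Dglucy was at 0.69 over 9 members and Tbc1d16 at 0.82 over 6. Scmh1 rested on 2 members with 1 and 4 counts in Ctrl against 19 and 20 in KO, and passed the filter only through the KO libraries.

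The genes with most members were long, and none of the 5 had an unadjusted p under 0.05. Gm20388, a predicted locus of 4435 kb that runs over other genes, held 149 members, of which 126 lay in 17 other genes. Celf2, a splicing regulator, held 75 members with 474 and 503 CPM in Ctrl against 491 and 520 CPM in KO (log2 fold change 0.049 with an SE of 0.20). Foxp1, a forkhead factor of T cell quiescence, held 55 with 326 and 287 CPM in Ctrl against 350 and 300.2 CPM in KO (0.085, SE 0.22). Fgfr2 held 66 members, 53 of them inside 7 other genes of its annotated span, and Wwox held 52, with log2 fold changes of 0.010 and 0.31. For Celf2 and Foxp1 the spread within a group was as large as the difference between groups.

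Comparing the 3′ with the 5′ part inside the same gene removes a change common to the whole gene. The test of this interaction was possible in 4068 genes, and in 2452 of them (60.3%) the 3′ part was lower relative to the 5′ part in KO, with a median of −0.20. The median log2 ratio of counts in the 3′ part to those in the 5′ part over these genes was 0.22 and 0.37 in Ctrl against 0.063 and 0.11 in KO, so that both KO libraries were below both Ctrl libraries. No gene passed an adjusted p of 0.05 in edgeR (smallest 0.230), with 210 lower (5.16%) and 79 higher (1.94%) at an unadjusted p under 0.05. Without Ctrl replicate 2 the median was −0.10. When each part needed at least 50 counts, 4 genes were called lower and 2 higher.

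Of the 5 lower genes with the smallest p here, Syne3, which encodes nesprin-3 of the nuclear envelope, was the most balanced. Its 3′ part held 157 and 266 counts in Ctrl against 104 and 134 in KO, and its 5′ part 132 and 208 counts in Ctrl against 237 and 300 in KO (log2 difference −1.48 with an SE of 0.35, adjusted p 0.230 in edgeR, 0.00733 to 0.929 over the alternatives). The 3′ part thus went from 54.3% and 56.1% of the sum of both parts to 30.5% and 30.9%. Spin1, a reader of methylated histone H3, went from 12.8% and 10.5% to 3.09% and 2.54% (−2.17, SE 0.51). Kdm3b, an H3K9 demethylase, Ece1, the endothelin-converting enzyme, and Lnpep, an aminopeptidase of vesicles, had differences of −2.35, −2.06 and −1.69. In these last 4 genes the members of the 3′ part held at most 49 counts in a library.

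In the 5 genes where the 3′ part was higher relative to the 5′ part, the low values were in the 5′ part. Fam107b held 10 and 6 counts in the 5′ part in Ctrl against 0 and 1 in KO, beside 517 and 919 counts in the 3′ part in Ctrl against 683 and 1363 in KO. Slc37a3 held 9 and 5 counts in the 5′ part in Ctrl against 0 and 0 in KO. Frmd4b held 13 and 17 counts in the 5′ part in Ctrl against 3 and 5 in KO. In each of these genes the 5′ part reached the minimum of 10 counts only through the Ctrl libraries. For Frmd4b, Evl, an actin regulator of the Ena/VASP family, and Bfsp2, the differences were 2.47, 2.14 and 2.62.

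Promoter activity and gene length split the members. When the members were put in 4 groups of equal size by the H3K27ac at the promoter of their gene, the lowest group, in genes with up to 11.6 CPM, had a median log2 fold change of −0.042, and 2.47% of its tested members were lower at an unadjusted p under 0.05. The next 2 groups had −0.31 and −0.37, with 6.45% and 5.89% lower, and the highest group had −0.22, with 4.66% lower. By gene length, the median was −0.37 in the shortest group (median length 32.7 kb), −0.35 and −0.19 in the next 2, and −0.046 in the longest (median length 320.1 kb). The share lower at an unadjusted p under 0.05 went from 7.23% to 2.30%. These groups are descriptions, and promoter level and gene length are related to each other.

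Ctrl replicate 2 bore on each of these groups. Without it, the medians by promoter level were 0.037, −0.10, −0.14 and 0.022, and by gene length −0.065, −0.090, −0.018 and −0.012. Members with the midpoint in coding sequence had a median of −0.37, those in untranslated regions −0.28 and those in introns −0.23, and without that library −0.079, −0.032 and −0.045. By mean CPM, the medians from the lowest to the highest of 4 groups were −0.32, −0.33, −0.39 and −0.12, and without Ctrl replicate 2 they were 1.72, 0.44, −0.21 and −0.0081. The lowest group had only 201 tested members of 5750. The part of depth and of abundance in these differences was not tested.

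**Figure D5:**
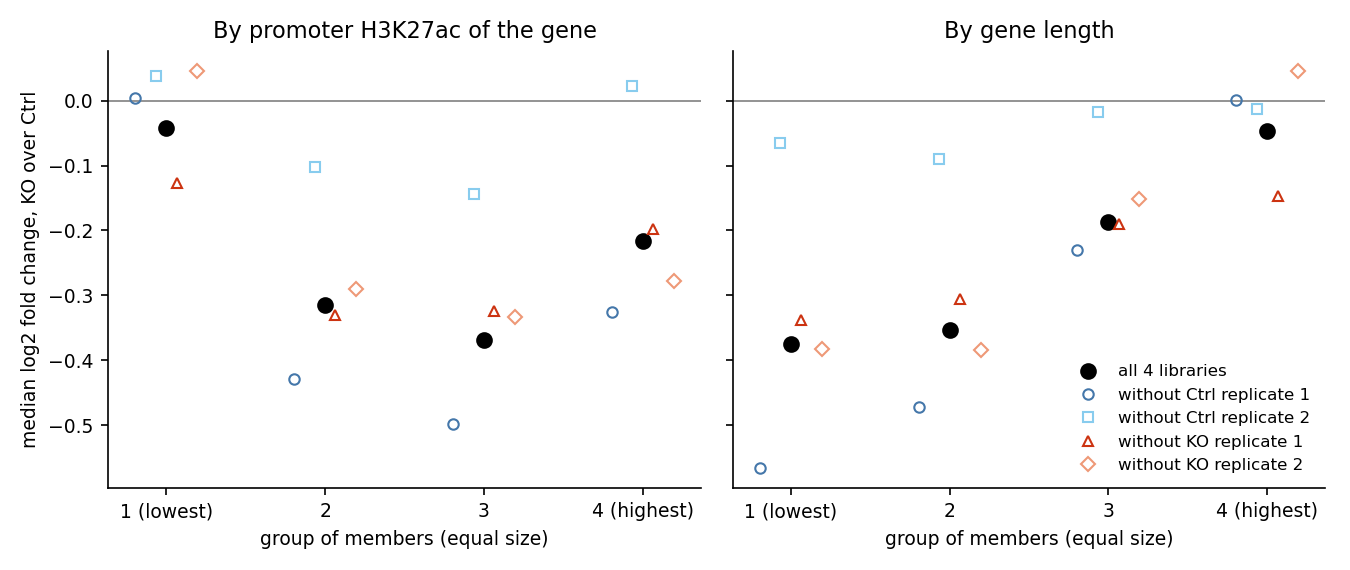
Median log2 fold change (KO over Ctrl) of the tested members in 4 groups of equal size by H3K27ac at the promoter of their gene (left) and by gene length (right). Black points use all 4 libraries and open symbols leave out 1 library each. The black points run from −0.042 to −0.37 on the left and from −0.37 to −0.046 on the right, and the points without Ctrl replicate 2 lie between −0.14 and 0.037.

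Setd2 itself held 7 members, of which 4 were tested. Summed, they had 22.2 and 52.4 CPM in Ctrl against 14.2 and 26.8 CPM in KO, and the groups overlapped (log2 fold change −0.86 with an SE of 0.42, adjusted p 0.422 in edgeR). The tested members had log2 fold changes of −2.31, −0.83, −0.18 and −1.24 from the first to the last along the gene. The first held 14 and 11 counts in Ctrl against 0 and 7 in KO, and passed the filter only through the Ctrl libraries. Most of the Ctrl signal came from Ctrl replicate 2, which held 64 of the 71 Ctrl counts of the member from 110615497 to 110616569 on chromosome 9. Without that library this member was at 1.02.

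Among the genes that the study followed in Treg cells, none of the members had an unadjusted p under 0.05. Gata3, the transcription factor shared by type 2 helper cells and a subset of intestinal Treg cells, held 3 members. The widest, on chromosome 2 from 9859070 to 9861546, had 20.4 and 22.0 CPM in Ctrl against 25.3 and 23.2 CPM in KO (log2 fold change 0.19 with an SE of 0.38, adjusted p 0.998 in edgeR). Il1rl1, which encodes the IL-33 receptor ST2, held 2 members of low counts, 0 and 2 in Ctrl against 12 and 0 in KO at one, 8 and 19 in Ctrl against 11 and 6 in KO at the other. Neither separated the groups.

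Foxp3, the transcription factor of Treg cells, held 5 members with a sum of 26.2 and 30.1 CPM in Ctrl against 27.2 and 45.0 CPM in KO (log2 fold change 0.36 with an SE of 0.41). One of them, on chromosome X from 7590360 to 7590815, had 1 and 4 counts in Ctrl against 11 and 21 in KO (2.35, SE 1.22, edgeR adjusted p 0.998). It passed the filter on counts only through the KO libraries, where it was high. Ccr9, a gut-homing chemokine receptor whose annotated span also holds Lztfl1, had 5 members that were all above 0, with log2 fold changes from 0.18 to 0.74 and a sum of 61.1 and 48.5 CPM in Ctrl against 70.0 and 70.9 CPM in KO. From the first to the last of these members, the distance to the nearest protein-coding TSS fell from 12.46 to 5.66 kb. A TSS thus lay on their 3′ side, and they count as the 3′ part only by the long annotated span. Cxcr6 and Ctla4 held no member.

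Among 77 Treg genes, 59 held 555 members, of which 379 were tested. Their median log2 fold change was 0.013, against −0.24 over all tested members, with 188 lower and 191 higher. At an unadjusted p under 0.05, 10 were lower (2.64%) and 6 higher (1.58%), close to the 2.79% and 1.45% of all tested peaks and beside 4.98% and 1.09% of all tested members, and 0 passed an adjusted p in edgeR. The 4 genes with most H3K27ac in their members were Foxp1, Rora, a nuclear receptor of type 2 and type 17 cells, Nfatc2 and the kinase gene Fyn, with per-gene log2 fold changes of 0.085, 0.30, −0.14 and −0.25. Rora had 218 and 277 CPM over 30 members in Ctrl against 295 and 316 CPM in KO, and its groups did not overlap. Nfatc2 had 188 and 206 CPM in Ctrl against 149 and 208 CPM in KO. Without Ctrl replicate 2 the median of the Treg genes was 0.19. In the tested peaks of the 5′ part the Treg genes had a median of 0.077, against −0.052 over all genes with members. A median above that of all genes was thus not particular to the 3′ part.

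Genes that write, read or erase H3K36 methylation, or act beside Setd2, held 121 members in 31 genes, of 38 that matched. The 63 tested members had a median of −0.45, with 49 lower and 14 higher. At an unadjusted p under 0.05, 5 were lower (7.94%, against 4.98% of all tested members and 2.79% of all tested peaks) and 0 higher, and 0 passed an adjusted p in edgeR. The median turned to 0.14 without Ctrl replicate 2, whose share of counts in these members was 0.0745%, against 0.0427% in Ctrl replicate 1 and 0.0354% and 0.0449% in the KO libraries. The genes with most H3K27ac in their members were Nsd3, Dnmt3a, Kdm2a and Kdm4b, with log2 fold changes of 0.21, −0.41, 0.0087 and −0.62. Dnmt3a, the DNA methyltransferase that binds H3K36 methylation, had 48.0 and 94.0 CPM in Ctrl against 40.6 and 66.6 CPM in KO. In the 5′ part, the genes of this list had a median of −0.24 over 70 tested peaks, against −0.052 over all genes with members. Lower values were thus not particular to the 3′ part.

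The study's lists of genes that change in mRNA in adult large intestinal Treg cells, from other samples, were compared at the members. The 228 genes lower in KO mRNA held 636 tested members with a median of −0.35, 440 lower and 196 higher, and 36 lower (5.66%) and 5 higher (0.786%) at an unadjusted p under 0.05. The 268 genes higher in KO mRNA held 881 tested members with a median of −0.049, 461 lower and 420 higher, and 30 lower (3.41%) and 12 higher (1.36%) at an unadjusted p under 0.05. Over all tested members these shares were 4.98% and 1.09%, and over all tested peaks 2.79% and 1.45%. In neither list did a member pass an adjusted p in edgeR. Members of the genes lower in mRNA took 0.493% and 0.628% of counts in Ctrl and 0.426% and 0.445% in KO, with both KO libraries below. Those of the genes higher in mRNA took 0.742% and 0.789% in Ctrl and 0.760% and 0.716% in KO, which overlapped. Without Ctrl replicate 2 the medians were −0.038 and 0.078. In the tested peaks of the 5′ part, the genes lower in mRNA had a median of −0.14 and those higher in mRNA 0.10. Over all genes with members the median of the 5′ part was −0.052, so the order of the 2 lists was not particular to the 3′ part.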

How the data were processed

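H3K27ac CUT&Tag was compared in 2 Ctrl and 2 KO libraries, and a listed IgG library was not analysed here. The values that the authors deposited are raw counts of reads in each peak of a merged set, not normalized. The submitters' processing notes name FastQC, Bowtie2, MACS2, bedtools and mm10, with versions not given in the sources used here. Per the study's methods, peaks were called against IgG on these same libraries, so the peak set depends on their signal. Members and lists were chosen with earlier results of these data known.

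Positions came from GENCODE M21, TSSs from every basic transcript of its protein-coding genes. A peak was tested where 2 or more libraries had at least 10 counts, in edgeR 4.0.16 (R 4.3.3; TMM, quasi-likelihood, Benjamini-Hochberg over all tested peaks, or over all genes for sums). The fit had 2 residual degrees of freedom, and the prior ones were infinite for peaks and gene sums, so the spread came from the trend. SEs were derived from the F statistic. The within-gene comparison tested an interaction of gene part and genotype in genes with at least 10 counts per part, and its ratios per library used a pseudocount of 0.5. The edgeR p-values of peaks and gene sums thus rest on a spread shared across features in these libraries, not on each feature's own. They do not measure the spread between mice, which were pooled. DESeq2 1.42.0, other scalings, filters, membership rules, the replicate number as a block and leaving out each library were alternatives. The code was tested on simulated data.

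Named were the 10 members of highest mean CPM, the 5 higher and 5 lower with the smallest p among those whose groups did not overlap (likewise per gene and within genes), the 5 genes with most members, 8 genes of the study (1 of them is not reported here), and the 4 genes of highest summed CPM in the Treg and H3K36 lists. In the mRNA lists 99.0% and 99.3% of the names matched the annotation.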

Additional observations from a re-analysis of the deposited data

How the results depend on the processing

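The median log2 fold change of the members stayed below 0 in every alternative run, from −0.33 to −0.046 when 1 library was left out (−0.046 without Ctrl replicate 2), and it was −0.038 with at least 50 counts. With a mean of at least 10 counts over the 4 libraries, added after seeing the data, it was −0.25, and with every peak that had a count −0.30. Calls at an adjusted p under 0.05 in edgeR were 0 for members in the alternatives other than the block. For gene sums, leaving out 1 library gave 0 to 5 lower genes (5 without Ctrl replicate 1). Within genes, calls were 4 lower and 2 higher with at least 50 counts in each part, 4 lower and 5 higher in genes of at least 50 kb, 1 higher when distance to a TSS was taken from the midpoint, and 0 to 2 lower and 0 to 1 higher when 1 library was left out (2 and 1 without KO replicate 2). The cause was not tested. At an unadjusted p under 0.05, members lower and higher were 662 and 145, against 338 and 54 in DESeq2, 27 and 9 with at least 50 counts, 402 lower in genes of at least 50 kb, 340 and 85 without KO replicate 1, and 50 higher without KO replicate 2. Gene sums gave 508 lower and 24 higher, against 14 higher in DESeq2, 13 higher when scaled to total counts, 216 and 15 with at least 50 counts, 231 and 12 in genes of at least 50 kb, 203 and 10 without KO replicate 1, and 289 lower without KO replicate 2. Within genes, 210 lower and 79 higher became 104 lower without Ctrl replicate 2, 38 higher with at least 50 counts in each part and 52 higher in genes of at least 50 kb. The median member held 7 to 14 counts in a library.

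The 2 pairs of equal replicate number share only a number in the labels, and their deviations from the group means correlated at 0.22 over members and 0.26 over all tested peaks. With the replicate number as a block in edgeR, 25 of 13304 tested members were lower and 2 higher at an adjusted p under 0.05 (1076 and 363 unadjusted). The shares over all tested peaks with this block are not given here, so these counts have no background beside them. Of 4782 tested gene sums, 310 were lower and 30 higher (934 and 124 unadjusted). Sums over the other parts of the gene were not fitted, so these counts have no background either. Within genes, 12 of 4068 were lower and 8 higher. The median over members was −0.23 with the block.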

Other observations

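The lower members and genes named for small p held some that act in cell division or DNA replication (Mki67, Nuf2, Rif1, Ckap5, Melk) and some that do not (Pbrm1, Galnt12, Ubr4). A list of 77 genes of proliferation was put together after these values had been seen. It holds picked genes themselves, among them Mki67 and Nuf2, so its values are a description with no test. Of these genes 60 held 316 members, of which 206 were tested, with a median log2 fold change of −0.60 against −0.24 over all tested members. 157 were lower and 49 higher, and at an unadjusted p under 0.05 28 were lower (13.6%) and 5 higher (2.43%), beside 4.98% and 1.09% of all tested members and 2.79% and 1.45% of all tested peaks. None passed an adjusted p in edgeR. The median stayed below 0 without each library in turn, between −0.34 (without Ctrl replicate 2) and −0.64. Their members held 1854 and 2016 CPM in Ctrl against 1440.4 and 1324 CPM in KO, with both KO libraries below both Ctrl libraries. The promoters of the same 77 genes held 2793 and 2558 CPM in Ctrl against 2762 and 2629.8 CPM in KO, which overlapped. The peaks of the 5′ part of these genes had a median of −0.62 over 169 tested, with 24 lower and 0 higher at an unadjusted p under 0.05, so the lower values were not particular to the 3′ part.

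By gene, 51 of 57 tested genes of this list were below 0 and 6 above, with a median of −0.87. Cit, a kinase of cytokinesis, had 42.1 and 73.5 CPM over 11 members in Ctrl against 22.4 and 22.0 CPM in KO (log2 fold change −1.39 with an SE of 0.39, adjusted p 0.226 in edgeR). Cdk5rap2, a centrosome protein, had 149.3 and 104.2 CPM over 15 members in Ctrl against 65.6 and 53.4 CPM in KO (−1.09, SE 0.31, adjusted p 0.226). Anln, an actin-binding protein of the cleavage furrow, was at −1.75 and Stil, a protein of centriole duplication, at −1.73. The genes of the list with most H3K27ac in their members, Rad51b, Cdk6 and Diaph3, were at 0.13, 0.25 and −0.14. Whether the share of dividing cells differed between the pools was not tested.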
